A study of Mus musculus with 5 samples.

Results

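Cd4, Cd8a and Cd8b1 encode the coreceptors that define helper and cytotoxic T cells, and Zbtb7b encodes ThPOK, the transcription factor of the CD4+ lineage. The Runx3-bound and H3K4me1-marked regions around these 4 genes were examined in IL-2-activated splenic CD8+ T cells (CD8-TC). A region was included when at least 1 bp of it lay in a gene body or in the 50 kb on either side of it, by the GENCODE vM1 annotation of mm9. This gave 11 of the 9135 Runx3-bound regions and 19 of the 18992 H3K4me1-marked regions, in 3 loci, because the windows of Cd8a and Cd8b1 overlap.

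The CD8-TC of wild-type ICR mice had been selected on anti-CD8 beads, TCR-activated for 2 days with anti-CD3e and anti-CD28 and then grown for 4 days in 100 u/ml IL-2, in all 5 libraries alike. Chromatin was precipitated with anti-Runx3 antibody (2 libraries), anti-H3K4me1 antibody (1 library) or non-immune serum (NIS, 2 libraries). There was no comparison of treatments or genotypes, and the number of animals behind a library is not given in the sources used here. The labels mention repeats for both antibodies but list 1 H3K4me1 library, and which of these its peaks rest on is not stated. By the study's methods MACS was run on joined reads with NIS as control, and there is 1 list for each antibody and none for a single library. The positions and overlaps given here therefore have no replicate error and no test, and the lists hold neither peak height nor reads per region. A region missing from a list may lie under the calling threshold. These 5 libraries hold no transcript levels, and the arrays of the study were not used here, so the labelled cell type was not checked by the level of its markers.

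Runx3 is known to repress Cd4 in cytotoxic T cells through a silencer in the first intron of Cd4, and to repress Zbtb7b through a silencer upstream of its distal promoter. At the Cd8 genes it acts on enhancers, among them E8II, E8I and E8V, which lie in that order from Cd8b1 to Cd8a in the interval between these genes. The monomethylated form of lysine 4 of histone H3 (H3K4me1) is abundant at enhancers, and RUNX proteins bind DNA at a short motif that often lies near motifs of ETS factors. Coordinates of the silencers and enhancers are not given in the sources used here, so regions were placed by gene, intron, interval and order, and none is called by the name of an element.

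Sequence was read from the mm9 assembly under the regions in the places where these elements lie, to show what the called regions contain. RUNX motifs were any of TGTGGT or TGTGGC or TGCGGT or TGCGGC on either strand, so that the reverse complement of TGTGGT appears as ACCACA and that of TGTGGC as GCCACA, and TGCGGC reversed reads GCCGCA. Capitals mark the RUNX motifs. Each stretch runs 20 bp past its outermost motif, and stretches were limited to 300 bp. A match is a description of the letters and not evidence of a bound site. The Cd4 stretch is chr6:124835990-124836258 on the minus strand, the strand of Cd4, and holds 5 of the 6 RUNX motifs of its region. The Cd8 stretches are on the plus strand, the strand of Cd8b1 and Cd8a, at chr6:71291195-71291407, chr6:71302763-71302959, chr6:71307708-71307835 and chr6:71319568-71319613, in the order from Cd8b1 to Cd8a. The one 20.4 kb before Cd8a shows 2 of the 3 RUNX motifs of its region and the one 3.80 kb before Cd8a shows 1 of 2. The Zbtb7b stretch is chr3:89199946-89200191 on the minus strand, the strand of Zbtb7b.
Cd4 intron 1: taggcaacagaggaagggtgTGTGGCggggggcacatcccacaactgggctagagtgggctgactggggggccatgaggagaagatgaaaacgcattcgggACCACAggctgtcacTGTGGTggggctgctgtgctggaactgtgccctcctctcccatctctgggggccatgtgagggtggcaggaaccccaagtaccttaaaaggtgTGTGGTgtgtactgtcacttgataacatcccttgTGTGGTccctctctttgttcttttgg
Cd8, 32 kb before Cd8a: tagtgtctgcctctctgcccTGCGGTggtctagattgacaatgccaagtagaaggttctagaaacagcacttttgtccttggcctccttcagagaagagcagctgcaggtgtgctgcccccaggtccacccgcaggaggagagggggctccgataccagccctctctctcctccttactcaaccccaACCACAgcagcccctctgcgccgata
Cd8, 20.4 kb before Cd8a: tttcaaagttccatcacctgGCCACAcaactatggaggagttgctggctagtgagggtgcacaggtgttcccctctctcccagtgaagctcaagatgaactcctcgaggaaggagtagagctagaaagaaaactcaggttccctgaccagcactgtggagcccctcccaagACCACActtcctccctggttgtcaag
Cd8, 15.75 kb before Cd8a: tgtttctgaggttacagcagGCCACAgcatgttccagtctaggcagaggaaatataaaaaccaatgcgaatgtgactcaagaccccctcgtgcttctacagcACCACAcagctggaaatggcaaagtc
Cd8, 3.80 kb before Cd8a: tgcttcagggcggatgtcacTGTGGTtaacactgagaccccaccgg
Zbtb7b, 1.37 kb before the gene start: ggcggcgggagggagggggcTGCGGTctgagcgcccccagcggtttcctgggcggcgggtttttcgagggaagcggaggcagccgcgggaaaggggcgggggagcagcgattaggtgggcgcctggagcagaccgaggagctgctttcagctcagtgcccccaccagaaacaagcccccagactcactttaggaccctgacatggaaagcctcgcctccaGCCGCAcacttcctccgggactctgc

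Cd4 (ENSMUSG00000023274.7) lies at chr6:124814710-124838239 on the minus strand, with 10 exons. In its window of 124 kb there were 3 Runx3-bound regions and 4 H3K4me1-marked ones, the latter covering 5.56% of the window. The Runx3-bound region nearest to the Cd4 start was in intron 1, the intron known to hold the silencer, at chr6:124835959-124836552 (594 bp). Its centre was 1.98 kb downstream of the start in an intron of 8386 bp, and no other Runx3-bound region lay in the gene body. The region held 6 RUNX motifs, of which 5 were TGTGGT and 1 was TGTGGC, compared to a median of 2 over all Runx3-bound regions. Of all Runx3-bound regions 3.52% held 6 motifs or more, and of the 6197 regions no wider than this one 1.24% did so. The threshold of 6 was set at the value of this region after it had been seen, so these shares describe its place in the list and are no test.

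The 6 motifs of Cd4 intron 1 spanned 299 bp of the region. In the stretch printed above, 2 TGTGGT motifs lay on opposite strands with a gap of 9 bp, and 2 more followed downstream in the direction of Cd4 transcription. The region also held 3 ETS motifs, 1 AP-1 motif and 1 GATA motif. H3K4me1 covered the part on the gene-body side. The H3K4me1-marked region chr6:124834840-124836226 (1387 bp) was the only one in the Cd4 gene body, covered 268 bp or 45.1% of the Runx3-bound region and ended short of its centre. Of the 6 RUNX motifs, 4 lay in the marked part and 2 in the part towards the Cd4 start. No H3K4me1-marked region lay between the Cd4 start and this Runx3-bound region, so the first 2.01 kb of the gene was unmarked.

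The other Runx3-bound regions of the Cd4 window were both upstream and near the starts of neighbouring genes. The first, chr6:124860125-124860783 (659 bp), lay 22.2 kb upstream of Cd4 in Lag3, which encodes an inhibitory receptor related to CD4, over a coding exon and 1.27 kb downstream of the Lag3 start. It held 2 TGTGGT motifs, 2 ETS motifs and 2 GATA motifs, and 75 bp of it (11.4%) was covered by chr6:124857864-124860199 (2336 bp), the widest H3K4me1-marked region of the window. The second, chr6:124881193-124881495 (303 bp), was the narrowest of the 11 and lay 43.1 kb upstream of Cd4 over an untranslated part of Mlf2, its centre 62 bp upstream of the Mlf2 gene start. It held no RUNX motif and 2 ETS motifs, had a GC content of 73.9%, and was 20993 bp from the nearest H3K4me1-marked region. Between Cd4 and Lag3, where the Cd4 proximal enhancer is known to lie, 2 adjacent H3K4me1-marked regions of 1141 and 2008 bp had their centres 11.8 and 13.4 kb upstream of Cd4, and no Runx3-bound region was called there. In the 50 kb downstream of Cd4 there was no region of either list, with 95.5% of its 32-base words found once in the genome.

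**Figure D1:**
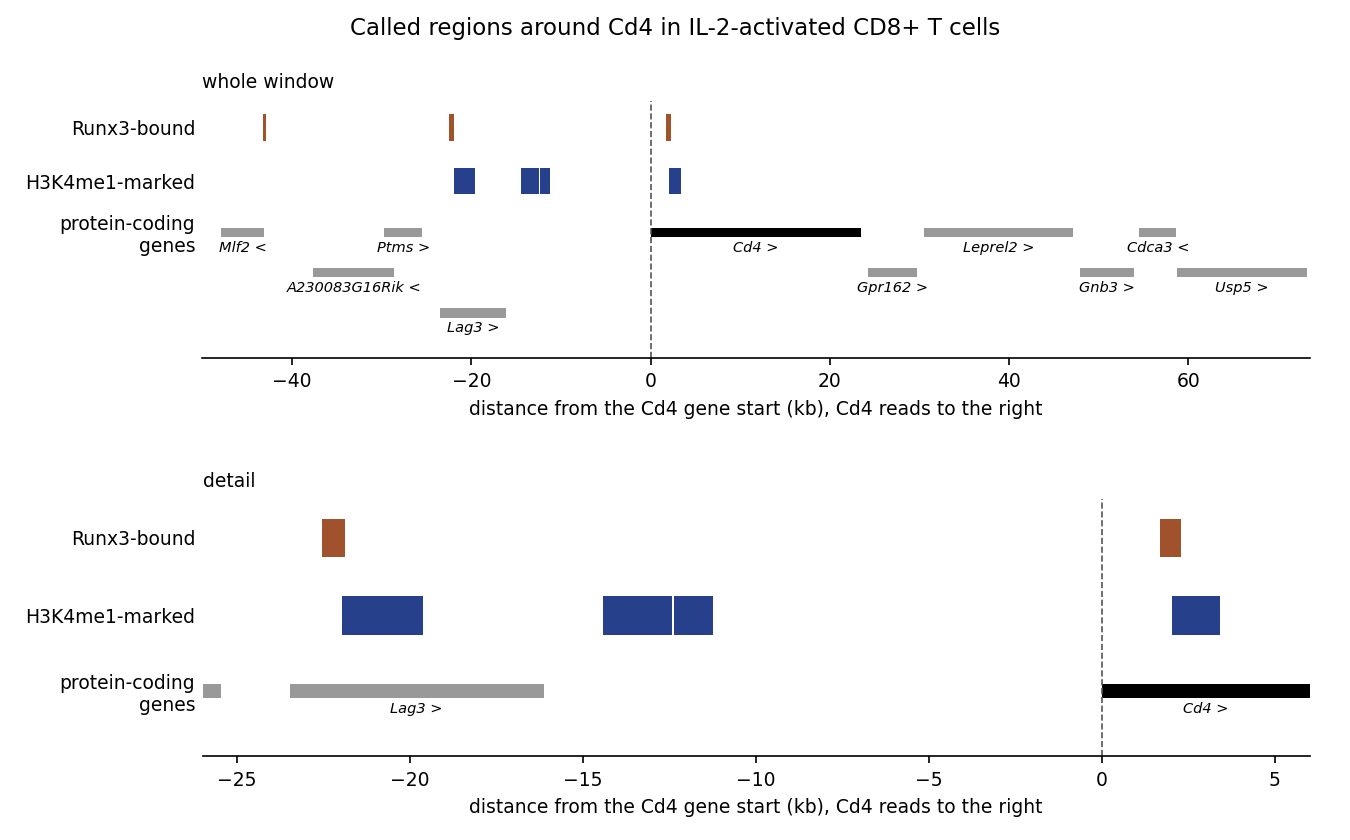
Runx3-bound regions (brown), H3K4me1-marked regions (blue) and protein-coding genes (Cd4 black, others grey, with > for genes read in the direction of Cd4 and < for the opposite) against distance in kb from the Cd4 gene start, in the whole window above and in detail below. The region 1.98 kb downstream of the start overlaps the only mark in the gene body, and the side downstream of Cd4 is empty.

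Cd8b1 (ENSMUSG00000053044.7, chr6:71272830-71287471, 6 exons) and Cd8a (ENSMUSG00000053977.7, chr6:71323421-71329165, 5 exons) are both read from the plus strand, Cd8b1 first, and are 35.9 kb apart. In their joint window of 156 kb there were 6 Runx3-bound regions and 13 with the mark, and the mark covered 16.3% of it. The interval between the genes, which is known to hold the E8 enhancers, had 4 of the 6 Runx3-bound and 8 of the 13 H3K4me1-marked regions, with 37.6% of its bases marked. The Cd8a gene body held no region of either list, while the Cd8b1 body held 1 Runx3-bound region and was marked over 38.7% of its length. The 8 H3K4me1-marked regions of the window without Runx3 were 824 to 2502 bp wide, and 2 of them lay upstream of Cd8b1, 1 in Cd8b1 and 5 between the genes.

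The 4 Runx3-bound regions between the genes had their centres 32, 20.4, 15.75 and 3.80 kb upstream of the Cd8a start. The first of them, chr6:71291160-71291683 (524 bp), was 18.6 kb downstream of the Cd8b1 start and held 2 RUNX motifs (TGCGGT and TGTGGT), 2 ETS motifs, 1 AP-1 motif and 1 STAT5 motif. Its part towards Cd8b1, 221 bp or 42.2%, lay in the H3K4me1-marked region chr6:71288569-71291380 (2812 bp). The second, chr6:71302725-71303282 (558 bp), held 3 RUNX motifs (2 TGTGGC and 1 TGTGGT), 3 ETS motifs and 1 TCF/LEF motif. This region too was marked on the side of Cd8b1, over 221 bp or 39.6%, by chr6:71300841-71302945 (2105 bp).

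The remaining regions of the interval differed from each other in the mark. The region at chr6:71307420-71307922 (503 bp) was 4474 bp from the nearest H3K4me1-marked region, the only one between the Cd8 genes without overlap. It held 2 RUNX motifs (TGTGGC and TGTGGT), 4 ETS motifs, the most of the 11 regions, and 1 AP-1 motif (TGACTCA) lying between the RUNX motifs in the printed stretch. The region at chr6:71319271-71319971 (701 bp), nearest to Cd8a, was the widest of the 11. It held 2 RUNX motifs (TGTGGT and TGTGGC), no ETS motif and 1 STAT5 motif, and 248 bp (35.4%) of it, on the side of Cd8a, lay in chr6:71319724-71320909 (1186 bp). Next to that mark, a further H3K4me1-marked region of 2360 bp ended 50 bp before the Cd8a start.

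The Runx3-bound regions inside and upstream of Cd8b1 were wholly marked. One, chr6:71283828-71284232 (405 bp), lay inside the gene 11.2 kb downstream of the Cd8b1 start. This region spanned the coding exon between introns 4 and 5 and reached into both introns. Intron 4 ends at 71284083 and intron 5 starts at 71284121, so most of the region was intronic. It was contained in the widest H3K4me1-marked region of the 3 loci, chr6:71282049-71285560 (3512 bp), and held no RUNX motif and 1 ETS motif. The other, chr6:71257518-71257884 (367 bp), was 15.1 kb upstream of Cd8b1 in an intron of Smyd1, which encodes a histone methyltransferase of muscle, and lay within chr6:71256796-71258612 (1817 bp). It held 1 TGTGGT motif and no ETS motif. This region was in the window of Cd8b1 but, at 65.7 kb from the start of Cd8a, not in that of Cd8a. In the 50 kb downstream of Cd8a no region of either list was called, with 91.2% of 32-base words unique.

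**Figure D2:**
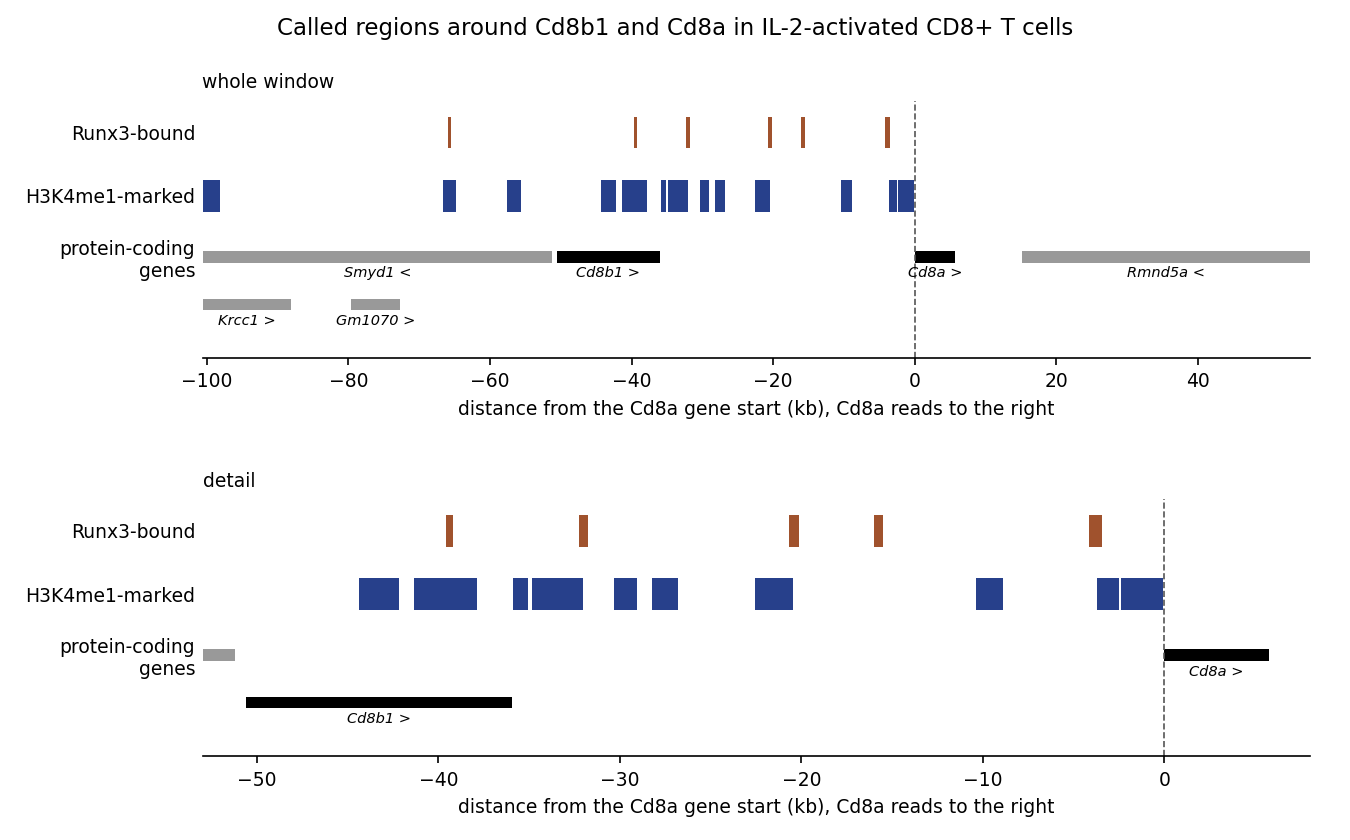
Runx3-bound regions (brown), H3K4me1-marked regions (blue) and protein-coding genes (Cd8b1 and Cd8a black, others grey, with > for genes read in the direction of Cd8a and < for the opposite) against distance in kb from the Cd8a gene start, in the whole window above and in detail below. All 6 Runx3-bound regions lie upstream of the Cd8a start, 4 of them between the genes, and the mark reaches to 50 bp before the Cd8a start.

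Zbtb7b (ENSMUSG00000028042.8, chr3:89181566-89198698, minus strand) had 2 Runx3-bound and 2 H3K4me1-marked regions in a window of 117 kb, and 1.82% of the window was marked. The Runx3-bound region near the gene, chr3:89199854-89200290 (437 bp), had its centre 1.37 kb upstream of the gene start. The gene start is that of a non-coding transcript, and the coding transcript used here begins 1414 bp further downstream, 2.79 kb from the region. The region overlapped an exon of the non-coding gene Gm15417 and had a GC content of 65.0%. It held 2 RUNX motifs, TGCGGC and TGCGGT, and 2 ETS motifs, but not TGTGGT.

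No mark at Zbtb7b overlapped a Runx3-bound region. The H3K4me1-marked region chr3:89200308-89201235 (928 bp) lay 17 bp upstream of the Runx3-bound region, with no shared base. The wider mark of the locus, chr3:89193171-89194372 (1202 bp), lay in intron 1, from 4.33 to 5.53 kb downstream of the gene start, where no Runx3-bound region was called. The other Runx3-bound region, chr3:89234062-89234647 (586 bp), was 35.7 kb upstream, with its centre 219 bp downstream of the start of Pygo2, which encodes a coactivator of the Wnt pathway. It held 4 RUNX motifs without TGTGGT and 2 ETS motifs, had a GC content of 72.4%, and was 32826 bp from the nearest mark. The 50 kb downstream of Zbtb7b held no region of either list, with 96.4% of 32-base words unique.

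**Figure D3:**
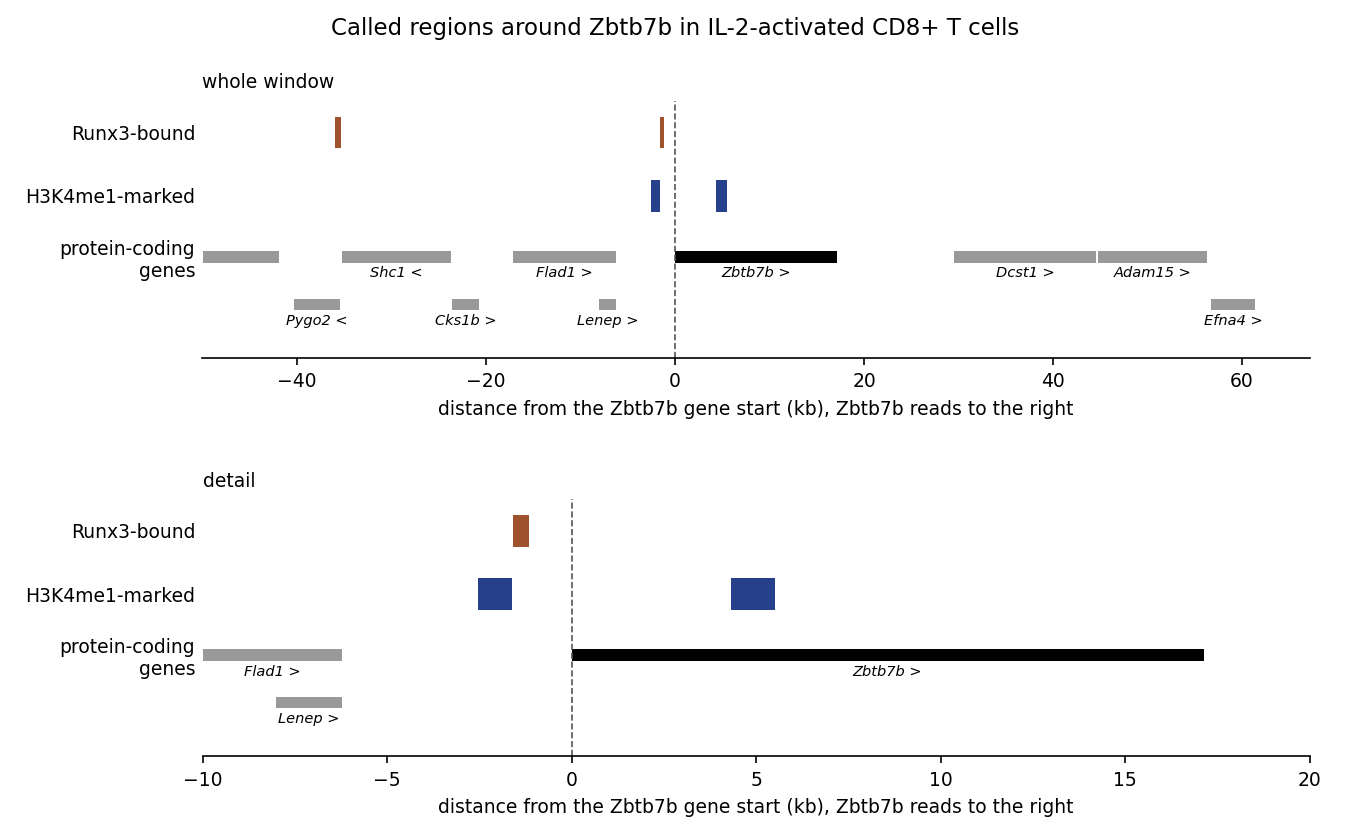
Runx3-bound regions (brown), H3K4me1-marked regions (blue) and protein-coding genes (Zbtb7b black, others grey, with > for genes read in the direction of Zbtb7b and < for the opposite) against distance in kb from the Zbtb7b gene start, in the whole window above and in detail below. The Runx3-bound region 1.37 kb upstream of the start adjoins a mark without overlapping it, and the mark in the gene body has no Runx3-bound region.

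All Runx3-bound regions of the 3 loci lay upstream of Cd4, Cd8a or Zbtb7b, apart from that in Cd4 intron 1, and the 50 kb downstream of each of these genes held no region of either list. The 50 kb downstream of Cd8b1, which reach past Cd8a, held 4 Runx3-bound and 8 H3K4me1-marked regions. An empty downstream side was common among genes with binding upstream. Of the 6430 protein-coding genes with a Runx3-bound region in the 50 kb upstream, 60.8% had none in the 50 kb downstream, and for the mark this was 48.7% of 7128 genes.

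The overlap of Runx3 with the mark was then compared to that of all Runx3-bound regions, to see how the lineage loci stand in the list. Of the 11 regions, 7 overlapped the mark by 1 bp or more, compared to 57.3% of all 9135, which is close to the background. By locus these were 2 of 3 at Cd4, 5 of 6 at the Cd8 genes and 0 of 2 at Zbtb7b. Runx3 was found in 7 of the 19 H3K4me1-marked regions, compared to 29.2% of all 18992. The form of the overlap was mostly partial. Of the 11 regions, 5 were partly covered (22.6% of all), 2 lay wholly in a mark (34.7% of all), 1 was within 500 bp without overlap (5.33% of all) and 3 were further away (37.4% of all). The mark covered the centre of 2 of the 11, compared to 46.3% of all Runx3-bound regions. With 11 regions such shares are coarse, and they were not tested.

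In the 5 partly covered regions, 66.0% of the 3036 bases and 7 of the 15 RUNX motifs lay outside the mark. In all 2063 partly covered regions of the list, 41.0% of the bases and 43.1% of 5036 RUNX motifs lay outside it. Relative to transcription of the locus gene, the mark lay downstream in Cd4 intron 1, at Lag3 and nearest to Cd8a, and upstream in the regions 32 and 20.4 kb before Cd8a. The comparison of bases and motifs across the edge of the mark was chosen after the positions had been seen.

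**Figure D4:**
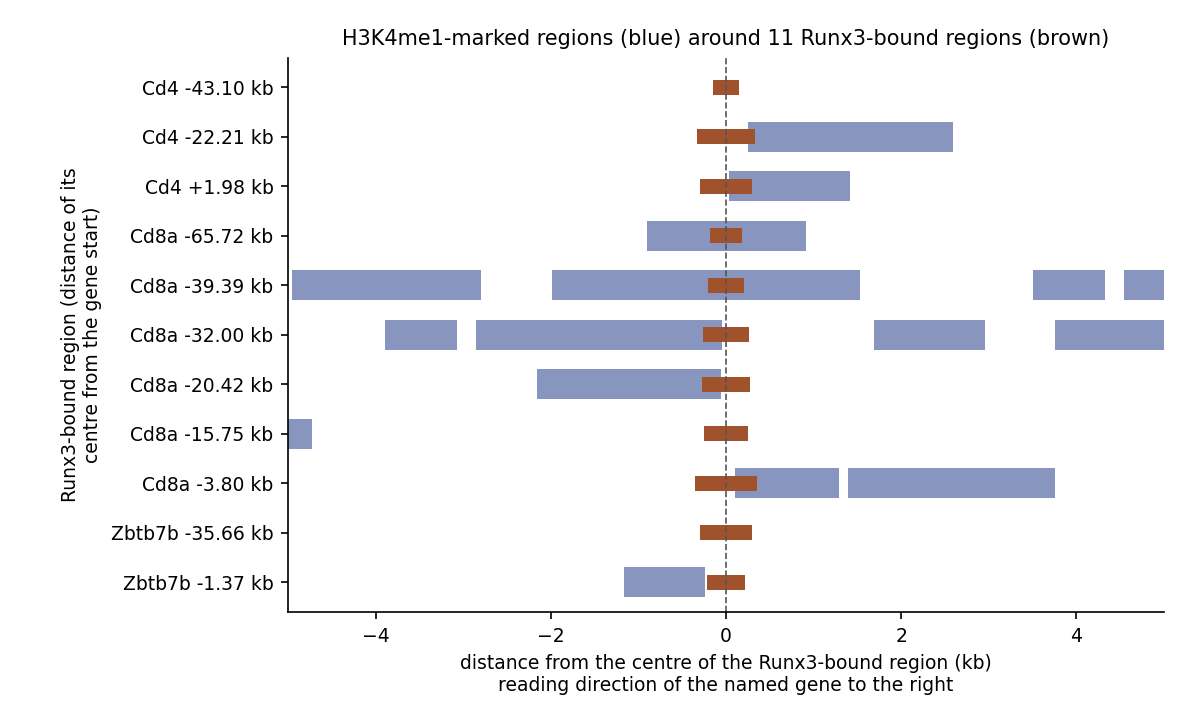
H3K4me1-marked regions (blue) within 5 kb of the centre of each of the 11 Runx3-bound regions (brown), 1 row per region, named by the distance of its centre from the start of Cd4, Cd8a or Zbtb7b. The centre (dashed line) is marked in 2 rows, inside and upstream of Cd8b1, and in 5 rows the mark covers one end of the Runx3-bound region.

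RUNX motifs were present in 9 of the 11 regions, compared to 92.6% of all Runx3-bound regions, and in the central 200 bp of 8 (78.8% of all). The regions without a motif were the one inside the Cd8b1 gene and that at Mlf2. Of the 24 RUNX motifs, 12 were TGTGGT, 6 were TGTGGC, 3 were TGCGGT and 3 were TGCGGC, and no such tally was made for the whole list. The commonest, TGTGGT, occurred in 7 of the 11 regions (69.6% of all), which were those with a RUNX motif at Cd4 and the Cd8 genes, and in neither region of the Zbtb7b window. TGCGGC was found in 2 of the 11 regions (16.3% of all), both in the Zbtb7b window. TGTGGC occurred in all 3 loci and TGCGGT in the Zbtb7b and Cd8 windows. The shares of all Runx3-bound regions with TGTGGC or TGCGGT were not computed. The Zbtb7b regions had GC contents of 65.0 and 72.4%, compared to 49.8 to 59.6% for the regions with TGTGGT.

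Motifs of other factors were searched on both strands as AGGAAA or AGGAAG or CGGAAA or CGGAAG for ETS, TGACTCA or TGAGTCA for AP-1, AGATAA or AGATAG or TGATAA or TGATAG for GATA factors. Those of TCF/LEF factors were CTTTGAT or CTTTGAA, and that of STAT5 was TTCNNNGAA. ETS motifs were in 9 of the 11 regions (88.9% of all), AP-1 in 3 (13.5% of all) and GATA in 2 (50.6% of all). TCF/LEF was in 1 region (20.4% of all) and STAT5, the factor activated by IL-2, in 2 (21.5% of all), both between the Cd8 genes. As pairs with a gap of at most 50 bp, ETS and RUNX motifs occurred in 7 regions (57.4% of all), AP-1 and RUNX in 1, which was the unmarked region between the Cd8 genes (5.78% of all), and 2 RUNX motifs in 1, which was Cd4 intron 1 (37.4% of all). These counts were not tested against the shares, and the matches of the other factors overlapped no RUNX motif.

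Closely spaced ETS and RUNX motifs were found in all 3 loci. A gap of at most 5 bp occurred in 5 of the 11 regions, compared to 13.8% of all Runx3-bound regions, and in 4 of them the ETS motif came 5′ of the RUNX motif on the same strand, compared to 4.58% of all. This spacing was noticed in the sequences of these regions before it was counted, so the counts are a description. The pairs are shown on the strand of the RUNX motif, with capitals for both motifs. They lie at chr6:124836233-124836248 (Cd4 intron 1), chr6:124860643-124860658 (Lag3), chr6:71302934-71302945 (Cd8), chr3:89199958-89199971 (Zbtb7b) and chr3:89234268-89234282 (Pygo2).
Cd4 intron 1, minus strand: AGGAAGggtgTGTGGC
Lag3, plus strand: AGGAAGgctgTGTGGT
Cd8, 20.4 kb before Cd8a, minus strand: AGGAAGTGTGGT
Zbtb7b, 1.37 kb before the gene start, plus strand: AGGAAGtgTGCGGC
Pygo2, plus strand: CTTCCTgggTGCGGC
The gap was 4 bp in Cd4 intron 1 and Lag3, 0 bp in the Cd8 region, 2 bp at Zbtb7b and 3 bp at Pygo2. The Pygo2 pair is the one in which the ETS motif faces the other way.

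The 4 genes were also placed among the 22350 protein-coding genes of the annotation, with the same window around each gene body. Of all genes, 47.9% had a Runx3-bound region in the window and 52.3% had an H3K4me1-marked region. Cd8b1, with 6 Runx3-bound regions, had the highest number of the 4, and 1.64% of genes had as many or more. Cd8a followed with 5 (3.30% of genes with as many or more), then Cd4 with 3 (13.6%) and Zbtb7b with 2 (26.2%). The neighbours in this order differ by 1 or 2 regions, for which there is no replicate error, and Cd8a and Cd8b1 share 5 regions.

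The order was the same for the mark. The window of Cd8b1 was covered over 22.2% (0.658% of genes with as high a share), that of Cd8a over 18.1% (1.43%), that of Cd4 over 5.56% (16.0%) and that of Zbtb7b over 1.82% (36.5%), compared to a median of 0.656% over all genes. The median width of the 19 H3K4me1-marked regions was 1817 bp (range 824 to 3512 bp) and that of the 11 Runx3-bound regions was 524 bp (range 303 to 701 bp), compared to 1592 and 521 bp for the whole lists.

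**Figure D5:**
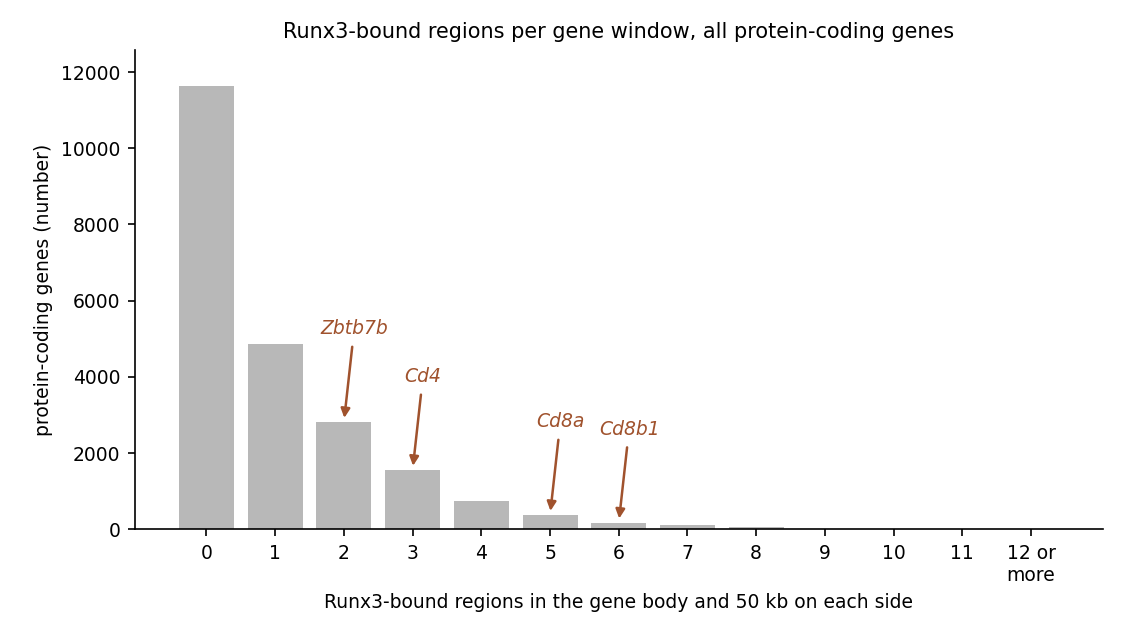
Number of protein-coding genes (bars) against the number of Runx3-bound regions in the gene body and 50 kb on each side, with arrows at the 4 genes. Zbtb7b with 2 and Cd4 with 3 lie among commoner values than Cd8a with 5 and Cd8b1 with 6.

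Genes known to act on Cd4, Cd8 or Zbtb7b or on the choice between the CD4+ and CD8+ lineages were examined as a list of 20, by the regions in the gene body or the 5 kb upstream. The list was drawn up with earlier results of these data known and is not independent evidence. Of the 20 genes, 17 had a Runx3-bound region, compared to 20.8% of all protein-coding genes. An H3K4me1-marked region was found at 17 of the 20, compared to 25.7% of all. These genes are long, with a median length of 52.3 kb compared to 15.4 kb for all protein-coding genes, and a longer body gives more room for a region. The part of length in the counts was not tested. Cd4, Cd8a, Cd8b1 and Zbtb7b each had 1 Runx3-bound region by this measure.

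Among the regulators, Runx1, which encodes the other RUNX protein of T cells, had 10 Runx3-bound regions over 225 kb, 8 of them overlapping the mark (57.3% of all Runx3-bound regions overlap it). The genes of the HMG-box factors Lef1 and Tcf7, which act on Cd4 and Cd8 genes, had 8 and 1. Tox, a factor needed for CD4+ T cell development, had 7, and Bcl11b, the T cell commitment factor, had 5. Ikzf1, which encodes Ikaros, had 4, and so did Lck, the kinase that binds the CD4 and CD8 coreceptors. Socs1, an inhibitor of cytokine signalling, had 4 Runx3-bound regions in its gene body of 1.73 kb and the 5 kb upstream. Runx3 itself had 1 Runx3-bound region, which did not overlap any of its 6 marks. Satb1, Ets1 and Stat5b had 3 Runx3-bound regions each, Tcf3 and Tcf12, which encode E proteins, had 2 each, and Myb, Patz1, which encodes a repressor of the Cd8 genes, and Il7r, the interleukin-7 receptor gene, had 1 each. No Runx3-bound region was called in the gene body or 5 kb upstream of Cbfb, which encodes the partner of RUNX proteins, Gata3, a factor of CD4+ T cell development, or Stat5a. The study, which assigned regions to genes by another rule, lists Gata3 among the Runx3-regulated genes of IL-2-activated CD8-TC. It also names Runx1 and Ets1 as repressed by Runx3 in these cells, and both had Runx3-bound regions here. Myb, Patz1 and Stat5a had no mark. Over the list, 37 of the 60 Runx3-bound regions overlapped an H3K4me1-marked region, which is close to the 57.3% of all Runx3-bound regions.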

How the data were processed

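Runx3, NIS and H3K4me1 ChIP-seq libraries came from IL-2-activated splenic CD8-TC. The authors aligned reads to mm9 with ELAND, retained unique alignments, joined the reads of repeats and called peaks with MACS against NIS. What was deposited is where every peak starts and ends in bp, in 2 lists without height, score or p-value. The study states the number of aligned reads per antibody, which is not reanalysed here. The lists give no reads per region, so the depth behind a region is unknown, and a count of regions depends on depth.

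Starts were converted to count from 1. Regions were placed on GENCODE vM1 genes of NCBIM37, the assembly named mm9, with overlap of at least 1 bp, and distances ran from region centre to gene start. Motifs were matched on both strands of the reference, all matches counted. Uniqueness was the share of 32-base words found once in the genome, an approximation of what ELAND could place. No test was made, and shares over all regions or genes are given as background. The named regions were every Runx3-bound region of the windows, each H3K4me1-marked region overlapping one, and the widest mark of each locus, with genes within 5 kb. Further marks of the Cd4, Cd8a and Zbtb7b surroundings were named after their positions had been seen. The members and lists were chosen with earlier results of these data known. Alternatives were other windows, merging of regions closer than 1 kb, counting of regions by their centre, overlap rules, motif rules and gene sets. Merging could not change the Runx3 counts, because neighbouring centres within a locus lay at least 4.67 kb apart. Computations used Python 3.11.15, NumPy 2.4.6 and matplotlib 3.10.9, and overlap and motif functions were tested on 200 simulated regions and 200 simulated sequences, with 0 differences from direct counting.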

Additional observations from a re-analysis of the deposited data

How the results depend on the processing

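Of 62 alternatives for 19 results, 43 stayed within 1.5 times of the main value. The rank of each gene entered this count as the share of genes with fewer Runx3-bound regions. That share is bounded above and could not rise by 1.5 times, so for the ranks the rule says little. The share of genes with as many or more, given in the Results, was not compared by this rule. With 10 kb instead of 50 kb on each side, Cd4 had 1 Runx3-bound and 1 H3K4me1-marked region, and Zbtb7b had 1 Runx3-bound region, as it did with 25 kb. The marked share of the window at 10, 25 and 100 kb was 3.19, 9.35 and 3.39% for Cd4 and 5.74, 3.17 and 0.981% for Zbtb7b, and at the Cd8 genes it was 27.7% at 10 kb and 9.93% at 100 kb. When at least 50% of a Runx3-bound region, or its centre, had to be marked, 0 regions overlapped at Cd4 and 2 at the Cd8 genes. Counting regions within 500 bp gave 1 at Zbtb7b. In the central 200 bp, 1 Cd4 region held a RUNX motif, and with TGTGGT alone 0 Zbtb7b regions did. Cd4, Cd8a, Cd8b1 and Zbtb7b kept their order among genes. The shares of genes with fewer Runx3-bound regions (86.4, 96.7, 98.4 and 73.8%) became 90.6, 98.2, 99.2 and 79.6% in windows around the gene start, and 74.3, 93.7, 96.8 and 53.1% among 11627 autosomal genes with a mark in the window. No paired analysis was possible because the lists were called on joined reads and hold no values per library. For the same reason no library could be left out, and a stricter peak threshold could not be applied without scores.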
